A study of Arabidopsis thaliana with 60 samples.

Results

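Transcripts of 10 dehydration and cold response effector genes were followed in stems of Arabidopsis thaliana. The genes are RAB18 (AT5G66400), COR15A (AT2G42540), COR15B (AT2G42530), KIN1 (AT5G15960), KIN2 (AT5G15970), RD29A (AT5G52310), RD29B (AT5G52300), P5CS1 (AT2G39800), ERD10 (AT1G20450) and COR47 (AT1G20440). They were chosen by name, as known outputs of the drought and cold responses, and all 10 were found among the 37967 genes of the count tables. All 10 had enough counts to be tested in every comparison.

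Stem RNA was sequenced in 5 groups of 3 samples, and all plants were 9 to 10 weeks old, grown in 0.5x Noren medium, with no further treatment named in the labels. The wild type Col-0 (set 1), a line with HCT silenced by RNA interference (HCT-RNAi) and a mutant line named gpt2-1 are called trial 1 here. A second set of wild type Col-0 (set 2) and a line that overexpresses GPT2 (35S GPT2) are called trial 2. HCT encodes an acyltransferase of lignin synthesis, and GPT2 encodes a glucose 6-phosphate translocator of the plastid envelope. The 35S promoter is active in most tissues of the plant. The study asked how GPT2 expression relates to lignin synthesis. The labels do not say which promoter drives the silencing construct, how many independent lines were used, how many plants made up a sample, or at what time of day stems were harvested. The labels call the samples biological replicates.

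Water loss and cold act on these genes by 2 routes that are well described in this species. Abscisic acid (ABA) is bound by PYR/PYL receptors, which then inhibit clade A protein phosphatases 2C, so that SnRK2 kinases can activate bZIP factors (ABFs), and these bind a promoter element called ABRE. Cold induces the CBF factors and drought the DREB2 factors, which bind another element, the DRE. The proteins made at the end of these routes include dehydrins and other hydrophilic late embryogenesis abundant (LEA) proteins, which protect membranes and proteins, and enzymes that make compatible solutes such as proline.

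The genes differ in how many copies of these elements lie close to their start. Both strands of the bases from 250 before to 50 after the annotated start were searched for the ABRE core ACGTG and the DRE core CCGAC. Of 27443 protein-coding genes, 26.7% held the ABRE core in such a window and 15% the DRE core, while 10.7% held at least 2 ABRE cores and 2.09% at least 2 DRE cores. The ABRE core lay in the window of 5 of the 10 genes and the DRE core in that of 3. COR15B, P5CS1, ERD10 and COR47 held neither in this window. In the 1000 bases before the start, however, ERD10 held 5 ABRE and 2 DRE cores. COR15B, COR47, RAB18 and KIN1 each held 1 DRE core there, and P5CS1 held neither kind. Of the 27443 genes, 54.4% held the ABRE core and 37.4% the DRE core in those 1000 bases. The 250 bases before the start, from RefSeq's TAIR10.1 assembly, are shown for RAB18 (ABRE cores only), COR15A and RD29B (both kinds), RD29A (DRE cores only) and P5CS1 (neither), because these genes cover each kind of window. Sequences run 5′ to 3′ on the gene's strand, and capitals mark matches on either strand (CACGT and GTCGG are the cores on the opposite strand).
RAB18, chr5:26519448-26519697, minus strand: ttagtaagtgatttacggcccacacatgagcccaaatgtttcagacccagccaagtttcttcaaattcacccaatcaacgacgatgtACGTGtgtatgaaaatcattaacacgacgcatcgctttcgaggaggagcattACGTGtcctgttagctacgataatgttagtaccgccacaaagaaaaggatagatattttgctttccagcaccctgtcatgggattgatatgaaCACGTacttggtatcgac
COR15A, chr2:17712331-17712580, minus strand: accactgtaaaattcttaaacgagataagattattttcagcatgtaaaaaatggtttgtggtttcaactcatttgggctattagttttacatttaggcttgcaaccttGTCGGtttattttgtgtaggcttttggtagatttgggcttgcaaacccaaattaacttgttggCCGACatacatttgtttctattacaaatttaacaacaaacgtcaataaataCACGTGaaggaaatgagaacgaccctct
RD29A, chr5:21240467-21240716, plus strand: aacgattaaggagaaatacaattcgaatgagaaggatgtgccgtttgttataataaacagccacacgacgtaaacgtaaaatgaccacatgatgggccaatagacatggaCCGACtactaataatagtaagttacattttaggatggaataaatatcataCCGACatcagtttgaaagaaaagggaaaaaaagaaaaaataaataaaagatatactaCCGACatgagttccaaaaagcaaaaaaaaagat
RD29B, chr5:21236771-21237020, plus strand: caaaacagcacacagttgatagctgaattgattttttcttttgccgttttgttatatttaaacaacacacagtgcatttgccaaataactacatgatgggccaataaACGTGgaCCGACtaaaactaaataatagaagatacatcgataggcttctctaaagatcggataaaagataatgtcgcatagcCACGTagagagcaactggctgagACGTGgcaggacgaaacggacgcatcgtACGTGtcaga
P5CS1, chr2:16603320-16603569, minus strand: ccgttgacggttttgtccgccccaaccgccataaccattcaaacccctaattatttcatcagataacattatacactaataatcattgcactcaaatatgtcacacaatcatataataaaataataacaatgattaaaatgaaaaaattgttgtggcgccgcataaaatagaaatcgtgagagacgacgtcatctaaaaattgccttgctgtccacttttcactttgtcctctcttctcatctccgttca
RAB18 held 3 ABRE cores, whose first printed bases lie 163, 111 and 18 bases before the start. COR15A held the palindrome CACGTG, counted as 2 overlapping matches 28 and 27 bases before the start, and DRE cores 142 and 79 bases before it. RD29A held 3 DRE cores before the start, at 140, 90 and 33 bases, and 1 more after it. RD29B held 4 ABRE cores, at 143, 61, 38 and 10 bases, and a DRE core at 136 bases. KIN1 held 1 ABRE core, and KIN2 held 1 before the start and a palindrome after it. A match is a description of letters and says nothing of what binds there.

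Of the 10 genes, 8 form 4 neighbouring pairs, each pair on 1 strand. COR15A and COR15B lie 7 bases apart on chromosome 2, and their coding sequences were identical at 83.8% of aligned bases. KIN1 and KIN2 lie 892 bases apart on chromosome 5, with 95.02% identity. RD29B and RD29A lie 1185 bases apart on the same chromosome, with 78.6% identity. COR47 and ERD10 lie 1029 bases apart on chromosome 1, with 81.5% identity. Of the 50-base windows in KIN1 transcripts, 10 of 780 were shared with KIN2, so counts of this pair depend on how shared reads were assigned. COR15B overlaps exons of a gene on the opposite strand over 29.6% of its exon bases, P5CS1 over 2.86% and RAB18 over 1.01%, and the other 7 genes over none.

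Total counts per library ran from 3827816 to 31713084, and the shallowest libraries were in trial 2. Levels are CPM, counts relative to the library's total, after TMM scaling over all 15 libraries. Transcripts of HCT, the silenced gene, reached 147.5 ± 7.99 CPM (SD, n = 3) in HCT-RNAi against 378 ± 25.8 CPM in its wild type. Those of GPT2 reached 245 ± 32.1 CPM in 35S GPT2 and 8.35 ± 1.91 CPM in HCT-RNAi, against 1.38 ± 0.151 CPM in Col-0 set 1. The libraries labelled gpt2-1 held 136.7 ± 4.18 CPM of GPT2, against their label, so no direction drawn from them is read as an effect of losing GPT2. In wild type set 2, replicate 1 held 6.31 CPM of GPT2 and the others 0.947 and 1.00 CPM, so that replicate stands apart. Genes under exons of the opposite strand were counted far lower in Col-0 set 1 and in the libraries labelled gpt2-1 than in HCT-RNAi and trial 2: of genes overlapped over more than 75% of exon bases, 408 of 411 passed the test as higher in HCT-RNAi. Markers of xylem (CESA4, CESA7, CESA8, XCP1 and XCP2) summed to between 2010 and 4530 CPM in every group, as stem tissue would hold. Sums of markers, here and below, are CPM without TMM scaling. Without scaling, RAB18 stood at 24.8 instead of 29.4 CPM in replicate 1 of the libraries labelled gpt2-1. It stood at 27.8 instead of 27.5 CPM in Col-0 set 1 replicate 1, and at 50.9 instead of 44.2 CPM in 35S GPT2 replicate 2. In these bulk samples, fewer cells of a type and less RNA per cell cannot be told apart.

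Per kilobase of exon, the genes spanned a wide range of levels in wild type stems. Among Col-0 set 1 stems, the acidic dehydrins ERD10 at 1060 ± 43.7 CPM per kb (SD, n = 3) and COR47 at 1046 ± 25.6 CPM per kb stood highest and did not differ beyond their spread. RD29A followed at 101.1 ± 6.98, then KIN2 at 46.3 ± 3.33, P5CS1 at 26.5 ± 2.99 and RAB18 at 25.6 ± 1.19 CPM per kb, and the last 2 did not differ beyond their spread. COR15B stood at 18.3 ± 1.56, COR15A at 3.51 ± 0.157, KIN1 at 2.75 ± 0.3 and RD29B at 0.367 ± 0.0975 CPM per kb. Genes under opposite-strand exons were counted lower in this set, so the place of COR15B cannot be told apart from that counting. The order differed in Col-0 set 2, where KIN2 at 818.6 ± 142 CPM per kb and COR47 at 708.6 ± 168 CPM per kb led and overlapped within their spread, RD29A and ERD10 stood at 494.3 ± 42.4 and 474.1 ± 76.6 CPM per kb, and COR15A at 50.4 ± 10.5 matched COR15B at 49.2 ± 14 and RAB18 at 48.1 ± 12.5 CPM per kb within their spread.

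**Figure D1:**
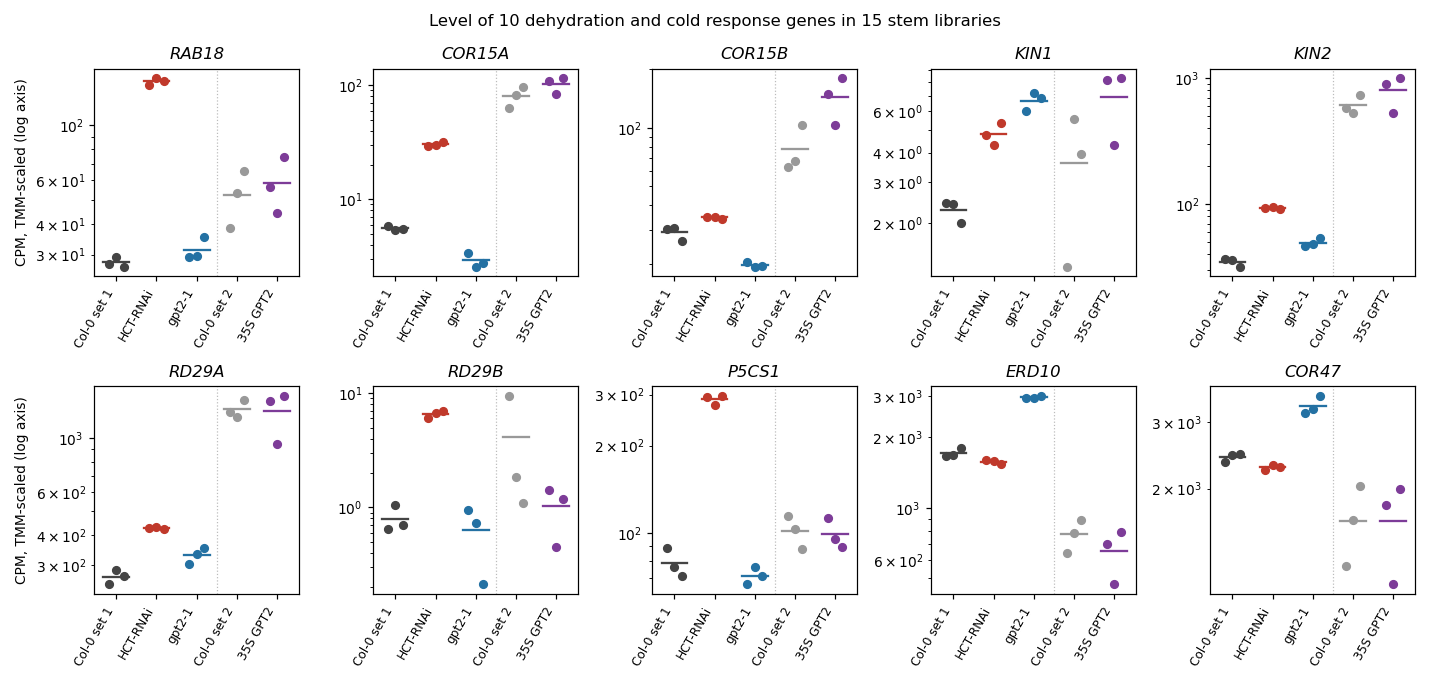
Level of each gene in each library, as TMM-scaled CPM on a log axis that differs between panels, for the 5 groups on the x axis. Points are libraries and lines are group means. The dotted line separates trial 1 from trial 2. RAB18 and P5CS1 stand highest in the 3 HCT-RNAi libraries, ERD10 and COR47 in the 3 libraries labelled gpt2-1, and COR15A, COR15B, KIN2 and RD29A in trial 2.

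HCT-RNAi was compared with Col-0 set 1, which is grouped with it here as trial 1. Tables of the 2 groups differ in counting under opposite-strand exons, and the line and the making of the tables cannot be told apart. Of the 10 genes, 8 rose in HCT-RNAi, ERD10 fell slightly and COR47 did not pass the test, and the median log2 fold change of the 10 was 1.26 against 0.00114 over all 20053 genes tested. Over all genes, 29.2% passed as higher and 26.5% as lower, so changes were common in this comparison. Among the 14452 genes without opposite-strand overlap, 23.6% passed as higher. The 8 genes include COR15B, whose rise cannot be told apart from the difference in counting. The genes that rose at least 2-fold were RAB18, COR15A, KIN1, KIN2, RD29B and P5CS1. Tests here and below are edgeR's quasi-likelihood F test on counts, with Benjamini-Hochberg adjustment over all genes tested and a threshold of 0.05.

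RAB18 encodes a dehydrin that ABA induces. It was found at 27.5, 29.4 and 26.9 CPM in the 3 libraries of Col-0 set 1, against 144.9, 155.3 and 151.4 CPM in HCT-RNAi. All 3 HCT-RNAi libraries were above all wild type libraries of either set, of which the highest held 65.6 CPM. The log2 fold change was 2.44 (SE 0.06, adjusted p = 7.82e-24 in edgeR), a 5.44-fold rise.

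P5CS1 encodes the enzyme that commits glutamate to proline synthesis. It stood at 88.6, 76.2 and 71.4 CPM in Col-0 set 1 against 293.9, 276.6 and 296.7 CPM in HCT-RNAi, with no overlap. Col-0 set 2 also lay below, at 114.3 CPM at most. The log2 fold change was 1.89 (SE 0.06, adjusted p = 5.81e-21 in edgeR). Among the genes followed here, RAB18 and P5CS1 were the 2 whose HCT-RNAi libraries all lay above both wild type sets. The share of all genes lying above both sets was not counted. Between the wild type sets themselves, 10914 of 19373 genes passed the test. The part of that difference in the place of HCT-RNAi against set 2 was not tested.

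COR15A encodes a LEA protein of the chloroplast stroma that protects membranes during freezing. It stood at 5.85, 5.41 and 5.44 CPM in Col-0 set 1 against 29.2, 29.8 and 31.9 CPM in HCT-RNAi, a log2 fold change of 2.46 (SE 0.08, adjusted p = 9.35e-20 in edgeR). The HCT-RNAi libraries lay above set 1 and below set 2, which held at least 62.5 CPM. Its neighbour COR15B, which encodes a like protein, stood at 30.4, 30.5 and 26.2 CPM in Col-0 set 1 against 35.0, 34.7 and 34.2 CPM in HCT-RNAi, a log2 fold change of 0.26 (SE 0.06, adjusted p = 0.000451 in edgeR). Among the 667 tested genes overlapped from the opposite strand over more than 25% and up to 50% of exon bases, as COR15B is, the median log2 fold change was 0.60 and 68.8% passed as higher, so the rise of COR15B cannot be told apart from the difference in counting.

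RD29B encodes a hydrophilic protein best known as an ABA response marker, and its level was the lowest of the 10 in Col-0 set 1. Col-0 set 1 held 0.650, 1.04 and 0.702 CPM, from 15, 25 and 12 counts, and HCT-RNAi held 6.06, 6.68 and 6.98 CPM, from 160, 157 and 178 counts. The groups did not overlap, and the log2 fold change of 3.03 (SE 0.22, adjusted p = 1.59e-12 in edgeR) was the largest among the 10. RD29A, its neighbour, stood far higher, at 250.1, 287.3 and 270.6 CPM in Col-0 set 1 against 428.2, 433.1 and 422.5 CPM in HCT-RNAi, with no overlap. Its log2 fold change was 0.68 (SE 0.05, adjusted p = 3.13e-12 in edgeR).

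KIN1 and KIN2 encode small hydrophilic proteins induced by cold and ABA. KIN2 stood at 36.6, 35.7 and 31.9 CPM in Col-0 set 1 against 93.2, 95.1 and 91.6 CPM in HCT-RNAi, a log2 fold change of 1.44 (SE 0.05, adjusted p = 7.78e-19 in edgeR). KIN1, at 2.43, 2.41 and 1.99 CPM against 4.77, 4.30 and 5.33 CPM, had a log2 fold change of 1.08 (SE 0.15, adjusted p = 5.82e-07 in edgeR). Neither gene overlapped between the groups.

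The most abundant genes, for the dehydrins ERD10 and COR47, differed little. ERD10 stood at 1671, 1690 and 1802 CPM in Col-0 set 1 against 1600, 1586 and 1535 CPM in HCT-RNAi, a log2 fold change of -0.11 (SE 0.04, adjusted p = 0.0223 in edgeR). The call was lost when Col-0 set 1 replicate 3 (-0.08, adjusted p = 0.0728 in edgeR), HCT-RNAi replicate 2 (-0.12, 0.0522) or HCT-RNAi replicate 3 (-0.09, 0.104) was left out, and in a fit of genes without opposite-strand overlap (-0.08, 0.126). COR47 stood at 2358, 2458 and 2463 CPM against 2243, 2305 and 2286 CPM, and its log2 fold change of -0.07 (95% interval -0.16 to 0.01) failed the test (adjusted p = 0.147 in edgeR).

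**Figure D2:**
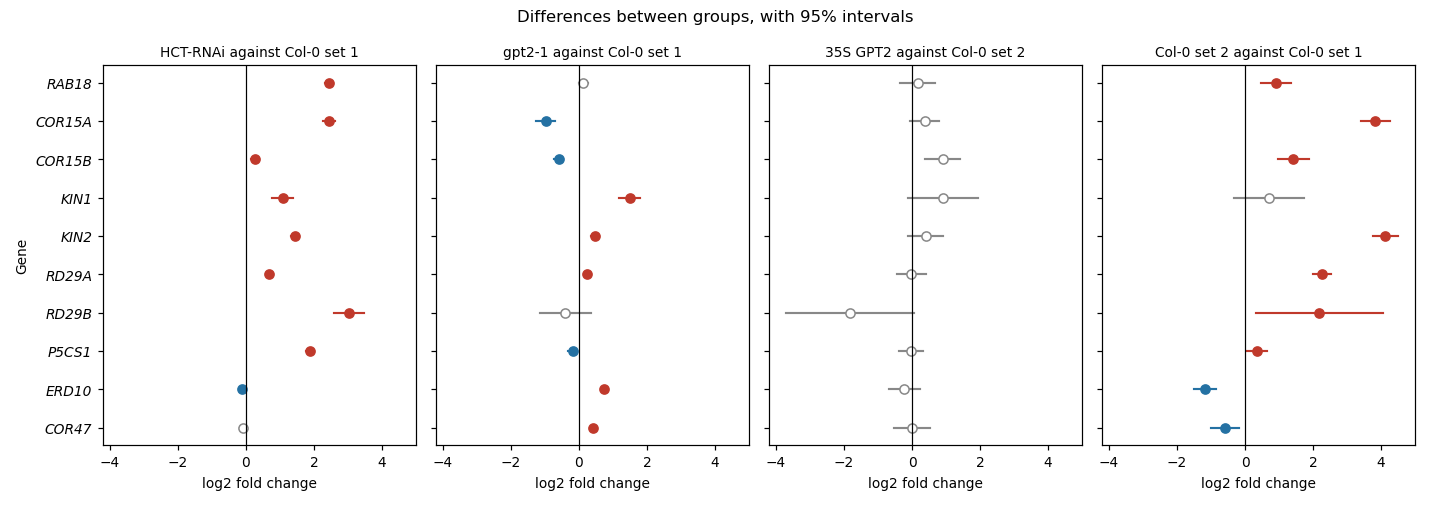
Log2 fold change of each gene (x axis) in 4 comparisons, with 95% intervals from the quasi-likelihood fit. Filled points passed the test, red as higher and blue as lower, and open grey points did not. In HCT-RNAi 8 genes lie to the right of 0, and in 35S GPT2 no gene passed.

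Genes upstream in both routes passed as lower more often than as higher, apart from the kinases and bZIP factors. Of 10 CBF and DREB regulators, 1 passed as higher and 7 as lower in HCT-RNAi (median log2 fold change -0.28). The higher one, named after its value was seen, was DREB2B, overlapped from the opposite strand over 69.5% of exon bases. Among the lower ones were CBF1 (-0.84, SE 0.06), CBF3 (-0.69, SE 0.08), CBF2 (-0.37, SE 0.05) and DREB2A (-0.35, SE 0.04). Of 9 ABA receptors tested, 6 were lower, PYL8 (-0.54, SE 0.06), PYL9 (-0.47, SE 0.06) and PYR1 (-0.32, SE 0.05) among them, and 1 was higher, PYL7, of whose exon bases 49.7% are overlapped from the opposite strand. Of 7 clade A phosphatases, which restrain ABA signalling, 5 were lower and 1 higher, with HAI2 at -0.75 (SE 0.08) and HAB1 at -0.48 (SE 0.05). Of 8 ABA kinases and bZIP factors, 3 were higher and 2 lower, and ABF4 among the higher ones is overlapped over 29.1% of exon bases. SNRK2.3, a kinase activated by ABA, stood at 0.42 (SE 0.05), and the bZIP factor gene ABF2 at -0.29 (SE 0.05).

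Other output genes changed in either direction in HCT-RNAi, where 29.2% of all genes passed as higher and 26.5% as lower. Of 13 other dehydrin and LEA genes tested, 7 rose and 4 fell, with LEA7 at 3.62 (SE 0.24), DI21 at 1.95 (SE 0.09), COR413-PM1 at 0.67 (SE 0.05) and the dehydrin gene LTI30 at 0.54 (SE 0.05). Of 17 further drought and cold outputs, 7 rose and 6 fell, with AT4G30650 at 1.84 (SE 0.08), HB7, a homeodomain factor gene induced by ABA, at 0.57 (SE 0.04), RD20 at 0.43 (SE 0.06) and ERD1 at -0.49 (SE 0.04). Of 9 proline genes, 4 rose and 3 fell. The median log2 fold change was 0.20 for the dehydrin and LEA genes, 0.000959 for the further outputs and 0.0117 for the proline genes. PRODH1, whose enzyme starts proline breakdown, fell (-1.26, SE 0.06, adjusted p = 1.23e-16 in edgeR), while P5CS2, the other gene for the committing step, rose (0.30, SE 0.05) and so did P5CR, for the next step (0.41, SE 0.05). P5CDH rose as well (0.76, SE 0.05), and 31.3% of its exon bases are overlapped from the opposite strand.

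Other marker lists differed between the same groups, and their part in these results was not tested. Xylem markers summed to 2900 to 3090 against 3460 to 3690 CPM in wild type, with 4 of 5 lower and 1 higher. Guard cell markers summed to 41.6 to 45.0 against 52.6 to 55.8 CPM, with 1 of 4 lower (KAT1) and 3 not past the test. The 4 epidermis markers summed to between 607 and 626 CPM in HCT-RNAi and between 977 and 1000 CPM in its wild type, with 3 of 4 lower and 1 higher. The 2 senescence markers summed to 38.2 to 41.0 CPM and to 126 to 133 CPM, with SAG13 higher (2.11, SE 0.05) and SAG12 lower (-1.43, SE 0.11). Of 9 core clock genes, 7 were lower in HCT-RNAi, with PRR9 at -1.34 (SE 0.07) and CCA1 at -0.96 (SE 0.05). The 7 seed markers, which accompany many LEA genes in seeds, were at or near 0, with sums of at most 1.27 CPM in HCT-RNAi and at most 2.59 CPM in its wild type.

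**Figure D3:**
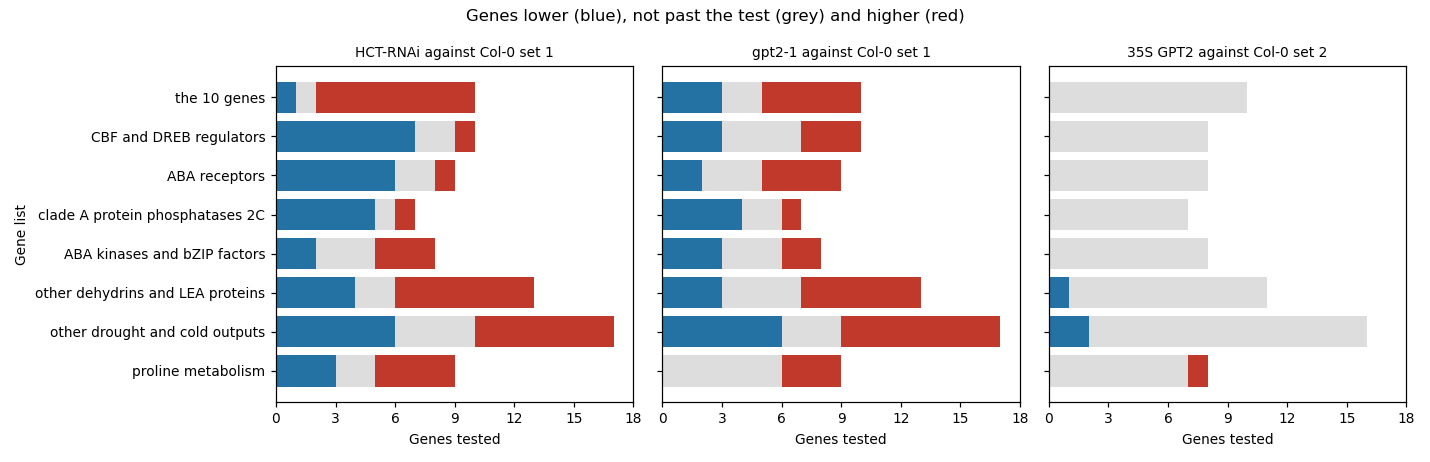
Number of genes (x axis) that passed the test as lower (blue) or higher (red) or did not pass (grey), for the 10 genes and 7 lists of the same routes, in 3 comparisons. In HCT-RNAi, 8 of the 10 genes and 1 of 10 CBF and DREB regulators are red. In 35S GPT2 nearly all bars are grey.

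In the libraries labelled gpt2-1, the same 10 genes split. Of the 10, 5 rose and 3 fell against Col-0 set 1, with a median log2 fold change of 0.189, while 27.4% of all genes passed as higher and 25.8% as lower. This comparison uses the same wild type libraries as the one for HCT-RNAi. KIN1 alone rose at least 2-fold.

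The dehydrins ERD10 and COR47 stood highest in these libraries. ERD10 held 2964, 2962 and 3012 CPM, above all other libraries of the study, and its log2 fold change was 0.75 (SE 0.04, adjusted p = 3.94e-15 in edgeR). COR47 held 3170, 3241 and 3520 CPM, likewise above all others, with a log2 fold change of 0.41 (SE 0.04, adjusted p = 4.71e-09 in edgeR). KIN1 held 5.998, 7.20 and 6.85 CPM and rose by 1.49 on the log2 scale (SE 0.15, adjusted p = 1.1e-09 in edgeR). KIN2 held 46.8, 48.2 and 53.4 CPM, a log2 fold change of 0.46 (SE 0.06, adjusted p = 1.11e-07 in edgeR), and RD29A held 303.0, 334.4 and 352.4 CPM, a log2 fold change of 0.25 (SE 0.05, adjusted p = 0.000126 in edgeR). None of these 5 genes overlapped with Col-0 set 1.

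The COR15 genes went down instead. COR15A held 3.40, 2.57 and 2.74 CPM, below every other library, with a log2 fold change of -0.98 (SE 0.13, adjusted p = 3.98e-07 in edgeR). COR15B held 20.5, 19.4 and 19.5 CPM, also below every other library, with a log2 fold change of -0.60 (SE 0.07, adjusted p = 1.22e-08 in edgeR). Over the 667 genes with an overlap like that of COR15B the median log2 fold change was -0.0387, with 152 higher and 142 lower.

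RAB18, at 29.4, 29.6 and 35.3 CPM, failed the test (log2 fold change 0.13, 95% interval -0.01 to 0.26, adjusted p = 0.111 in edgeR), and so did RD29B, at 0.955, 0.725 and 0.211 CPM (-0.40, 95% interval -1.15 to 0.34, adjusted p = 0.37 in edgeR). P5CS1, at 66.6, 76.5 and 71.1 CPM, overlapped with wild type and passed at a log2 fold change of -0.19 (SE 0.06, adjusted p = 0.0125 in edgeR). That call was lost without Col-0 set 1 replicate 1 (-0.09, adjusted p = 0.21 in edgeR) or without replicate 1 of the libraries labelled gpt2-1 (-0.14, adjusted p = 0.0933 in edgeR).

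Of 10 CBF and DREB regulators 3 were higher and 3 lower in these libraries, close to the shares over all genes, with CBF3 at -2.39 (SE 0.11), CBF1 at -1.61 (SE 0.07), CBF2 at -0.74 (SE 0.05) and the calmodulin-binding activator CAMTA3 at 1.03 (SE 0.04). Of 9 ABA receptors 4 were higher and 2 lower, and of 7 clade A phosphatases 1 was higher and 4 lower, HAI2 at -1.25 (SE 0.08) and ABI2 at -0.69 (SE 0.06) among them. Of 8 ABA kinases and bZIP factors 2 were higher and 3 lower. Of 13 other dehydrin and LEA genes 6 rose and 3 fell, with LEA14 at 1.33 (SE 0.04), ERD14 at 0.46 (SE 0.04) and HIRD11 at -0.63 (SE 0.05). Of 17 further outputs 8 rose and 6 fell, with the NAC factor gene RD26 at 1.89 (SE 0.07) and GOLS1, for galactinol synthesis, at 1.09 (SE 0.05). Of 9 proline genes 3 rose and none passed as lower, with PRODH2 at 1.78 (SE 0.05). Marker lists differed as well, and their part was not tested. The sums are without TMM scaling, which puts these libraries lower than scaled values would. Against Col-0 set 1, epidermis markers summed to 477 to 523 against 977 to 1000 CPM, with 2 of 4 lower and 1 higher. Xylem markers summed to 2400 to 2570 against 3460 to 3690 CPM, with all 5 lower. Guard cell markers summed to 31.7 to 34.1 against 52.6 to 55.8 CPM, with 1 of 4 lower (KAT1) and 3 not past the test. Of 4 phloem markers 3 were lower. The 7 seed markers summed to 2.51 to 5.76 against 0.870 to 2.59 CPM, and the 2 of them that could be tested were higher, SESA1 at 2.51 (SE 0.26) and CRU3 at 2.31 (SE 0.72). Of 9 clock genes 3 were higher and 6 lower, with PRR5 at -2.96 (SE 0.08) and LHY at 1.27 (SE 0.05).

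Set against each other within trial 1, all 10 genes differed between HCT-RNAi and the libraries labelled gpt2-1, 7 higher and 3 lower in HCT-RNAi, where 35.3% and 32.8% of all genes did so. COR15A (log2 fold change 3.44, SE 0.10, adjusted p = 6.67e-22 in edgeR) and RD29B (3.43, SE 0.24, adjusted p = 2.97e-13 in edgeR) had the largest differences, each 10.8-fold. RAB18 (2.32, SE 0.06), P5CS1 (2.08, SE 0.06), KIN2 (0.97, SE 0.05), COR15B (0.86, SE 0.06) and RD29A (0.43, SE 0.05) were also higher. ERD10 (-0.86, SE 0.04), COR47 (-0.48, SE 0.04) and KIN1 (-0.42, SE 0.13, adjusted p = 0.00467 in edgeR) were lower. For genes overlapped like COR15B the median difference was 0.633. The tables of these groups differ in that counting, and the line and the making of the tables cannot be told apart. KIN1 and KIN2 differed in opposite directions. With their counts summed, the pair was higher in HCT-RNAi (0.86, adjusted p = 1.42e-14 in edgeR), and KIN2 holds most of those counts.

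In trial 2, none of the 10 genes passed the edgeR test between 35S GPT2 and Col-0 set 2, and the median log2 fold change was 0.0835. Over all 18364 genes tested, 1.4% passed as higher and 1.11% as lower, 462 in all, and 2432 had an unadjusted p under 0.05. Of the 10 genes, COR15B alone had an unadjusted p under 0.05, and DESeq2 called 1 gene, also COR15B. Replicate 2 of 35S GPT2 had the lowest total count of the study.

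COR15B came closest. It stood at 63.1, 67.2 and 103.4 CPM in Col-0 set 2 and at 150.1, 103.1 and 180.6 CPM in 35S GPT2, where the lowest library lay just under the highest wild type one. Its log2 fold change was 0.90 (SE 0.24, 95% interval 0.37 to 1.42, adjusted p = 0.0884 in edgeR). Same-numbered samples of this trial deviated together, and with the sample number as a replicate block the log2 fold change was 0.90 and passed the test (adjusted p = 0.00386 in edgeR), 1 of the 10 genes. It also passed without Col-0 set 2 replicate 3 (1.16, adjusted p = 0.0481 in edgeR). The block moved the count over all genes from 462 to 1103. COR15A, at 62.5, 81.4 and 95.8 CPM against 108.8, 83.8 and 115.7 CPM, had a log2 fold change of 0.37 (95% interval -0.05 to 0.79, adjusted p = 0.439 in edgeR).

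The other genes did not pass either. COR47, with at least 4924 counts in every library of this trial, had a coefficient of variation of 23.7% in Col-0 set 2 and 28.3% in 35S GPT2, against at most 5.59% in the groups of trial 1. KIN1 stood at 0.92 (95% interval -0.12 to 1.95) and KIN2 at 0.40 (-0.12 to 0.92). RAB18 stood at 0.16 (-0.34 to 0.67), RD29A at -0.02 (-0.45 to 0.41), P5CS1 at -0.03 (-0.39 to 0.34), ERD10 at -0.23 (-0.69 to 0.23) and COR47 at 0.01 (-0.53 to 0.54). For RD29B, Col-0 set 2 held 9.46, 1.84 and 1.09 CPM and 35S GPT2 1.42, 0.453 and 1.18 CPM, so that its log2 fold change of -1.82 (95% interval -3.70 to 0.05, adjusted p = 0.39 in edgeR) rested on replicate 1 of the wild type, without which it was -0.36.

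In edgeR none passed among 8 CBF and DREB regulators, 8 ABA receptors, 7 clade A phosphatases and 8 ABA kinases and bZIP factors. Without adjustment, 0, 1, 1 and 2 of them had a p under 0.05, and DESeq2 called 1, a phosphatase gene. Over all genes tested, 2432 of 18364 had such a p. Of 11 other dehydrin and LEA genes DI21 fell (-0.95, SE 0.21, adjusted p = 0.0438 in edgeR). Of 16 further outputs GOLS1 (-1.10, SE 0.18) and TCH4 (-1.65, SE 0.25) fell, while 7 had an unadjusted p under 0.05 and DESeq2 called 3. Of 8 proline genes PRODH1 rose (2.12, SE 0.19, adjusted p = 0.000534 in edgeR). Xylem markers summed to 2840 to 4530 CPM in 35S GPT2 against 2010 to 2490 CPM in Col-0 set 2, with 2 of 5 past the test as higher, all 5 at an unadjusted p under 0.05 and all 5 called by DESeq2, and their part was not tested.

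The effect of 35S GPT2 was tested against the effect in the libraries labelled gpt2-1 in a fit of all 15 samples, since both lines hold high GPT2 counts. Of the 10 genes, 2 had a higher and 1 a lower effect in 35S GPT2, where 9.32% and 13% of 20645 genes did so. These were COR15B (difference of log2 fold changes 1.44, SE 0.26, adjusted p = 0.000564 in edgeR), COR15A (1.30, SE 0.24, adjusted p = 7e-04 in edgeR) and ERD10 (-1.03, SE 0.21, adjusted p = 0.00174 in edgeR). The other 7 did not pass, though KIN1 did (-0.85, adjusted p = 0.0428 in edgeR) without Col-0 set 2 replicate 1.

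The wild type sets of the 2 trials differed from each other in most of these genes. Of the 10, 7 were higher and 2 lower in Col-0 set 2 than in set 1, where 28.6% and 27.8% of all genes were, and the median log2 fold change was 1.16. KIN2 stood at 574.1, 532.8 and 735 CPM in set 2 against at most 36.6 CPM in set 1, a 17.4-fold difference (log2 4.12, SE 0.16, adjusted p = 4.87e-07 in edgeR). COR15A was 14.2-fold higher (log2 3.83, SE 0.19, adjusted p = 1.38e-06 in edgeR) and RD29A 4.82-fold higher (log2 2.27, SE 0.12, adjusted p = 2.08e-06 in edgeR), at 1287, 1221 and 1441 CPM. COR15B (1.42, SE 0.20, where genes overlapped to a like extent had a median of 0.821) and RAB18 (0.91, SE 0.19) were higher and ERD10 (-1.18, SE 0.14) and COR47 (-0.58, SE 0.18) lower.

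Some differences between the sets lay near the threshold. RD29B passed at 2.18 (SE 0.81, adjusted p = 0.049 in edgeR) and stood at 0.79 without Col-0 set 2 replicate 1 (adjusted p = 0.0799 in edgeR). P5CS1 passed at 0.34 (SE 0.13, adjusted p = 0.0471 in edgeR) and stood at 0.26 without that replicate (adjusted p = 0.0574 in edgeR), at 0.30 with DESeq2's size factors (0.0901 in edgeR) and at 0.30 in DESeq2's own test (0.0952). KIN1 did not pass (0.71, adjusted p = 0.215 in edgeR), with 1.30, 5.57 and 3.93 CPM in set 2, and passed without that replicate (1.01, adjusted p = 0.00215 in edgeR). Other calls were lost with about the same size of difference. RD29B failed the test without any 1 of the Col-0 set 1 replicates (2.10 to 2.47, adjusted p = 0.0973 to 0.136 in edgeR) and with DESeq2's size factors (2.16, 0.0536). P5CS1 failed it without Col-0 set 1 replicate 2 or 3 or Col-0 set 2 replicate 2 (0.27 to 0.33, 0.0921 to 0.191). COR47 failed it without any 1 of the Col-0 set 1 replicates or Col-0 set 2 replicate 2 (-0.61 to -0.57, 0.0557 to 0.077). The sets also differed in how their tables were made, and the wild type set and the making of the tables cannot be told apart.

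The CBF and DREB regulators were lower in set 2. Of 10 CBF and DREB regulators 7 were lower in set 2 and none higher, with a median log2 fold change of -3.18, and the cold-induced zinc finger gene ZAT12 (-6.65, SE 0.12), CBF2 (-5.63, SE 0.18), CBF1 (-4.91, SE 0.16) and DREB2A (-4.48, SE 0.15) led. Of 8 ABA kinases and bZIP factors 6 were higher and none lower, ABF1 at 0.94 (SE 0.13) and ABF4 at 0.74 (SE 0.10) among them. From the opposite strand, ABF1 is overlapped over 10.9% of exon bases and ABF4 over 29.1%. Genes overlapped to an extent like that of ABF4 had a median of 0.821, so its difference cannot be told apart from the counting. Of 9 core clock genes 4 were higher and 5 lower, with the morning gene LHY at -5.24 (SE 0.23) and the evening gene ELF4 at 5.67 (SE 0.28), and their part in the differences between the sets was not tested.

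Against both wild type sets at once, the HCT-RNAi libraries lay above both for 2 genes (RAB18 and P5CS1), above set 1 and below set 2 for 4 (COR15A, COR15B, KIN2 and RD29A), above set 1 and within set 2 for 2 (KIN1 and RD29B), and below set 1 and above set 2 for ERD10 and COR47. The libraries labelled gpt2-1 lay above both sets for KIN1, ERD10 and COR47 and below both for COR15A and COR15B. How many of all genes lay so was not counted, here or where groups are said above not to overlap. For COR15B, the place of the libraries labelled gpt2-1 against set 2 cannot be told apart from the difference in counting. The same holds for its place in HCT-RNAi against set 1.

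Ratios within a library do not depend on its total count, and those of the neighbouring pairs differed between groups. COR15A held 0.177 to 0.208 counts for each count of COR15B in Col-0 set 1, 0.133 to 0.165 in the libraries labelled gpt2-1, 0.834 to 0.933 in HCT-RNAi, 0.927 to 1.21 in Col-0 set 2 and 0.641 to 0.813 in 35S GPT2. The overlap of COR15B with a gene of the opposite strand enters this ratio, and its part was not tested. KIN1 held 0.0624 to 0.0676 counts for each of KIN2 in Col-0 set 1, 0.128 to 0.149 in the libraries labelled gpt2-1 and at most 0.0104 in any trial 2 library. RD29A held 60.5 to 70.7 counts for each of RD29B in HCT-RNAi and at least 136 in every library of the other groups. ERD10 held 0.856 to 0.935 counts for each of COR47 in the libraries labelled gpt2-1 and at most 0.732 in any other trial 1 library, while Col-0 set 2 had 0.437 to 0.512 and 35S GPT2 had 0.387 to 0.422.

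**Figure D4:**
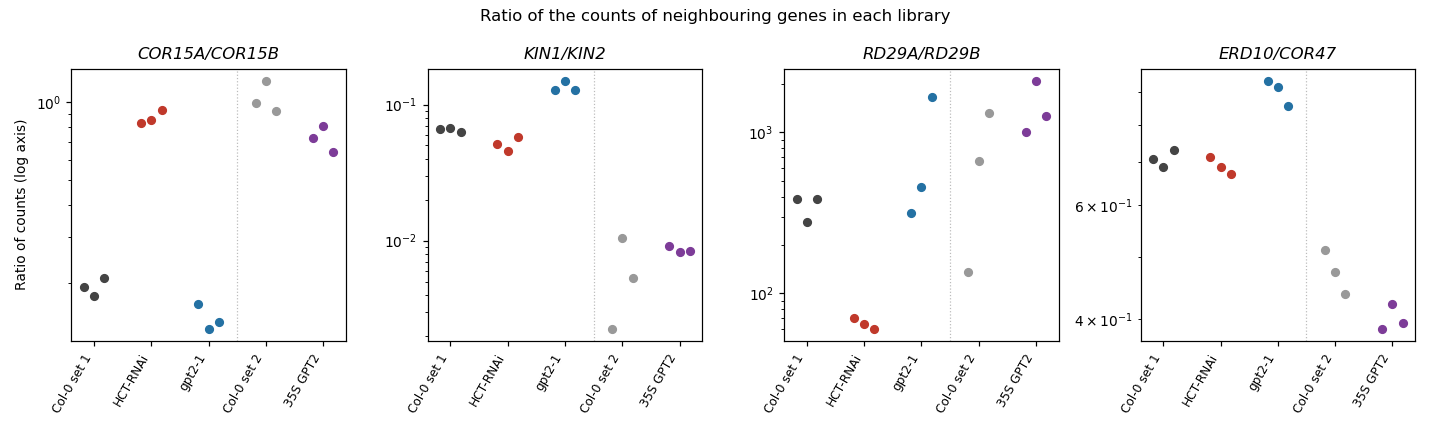
Ratio of the counts of the 4 neighbouring pairs in each library, on a log axis that differs between panels, for the 5 groups on the x axis. Points are libraries. COR15A/COR15B lies at 0.208 or below in Col-0 set 1 and the libraries labelled gpt2-1 and at 0.641 or above in the other groups, and RD29A/RD29B is lowest in HCT-RNAi.

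Genes with a pattern like that of RAB18, COR15A and P5CS1 were sought by Pearson's r of log2 CPM, centred on the wild type mean of the own trial, over the 15 samples and 9518 genes. The samples fall into 5 groups and share their wild type means, so r is a description only. For RAB18 the 3 highest were AT3G13310, a DnaJ-domain gene (r = 0.973), AT1G23030, an ARM repeat gene (0.965), and MLP28 (0.961). For COR15A they were LETM1 (0.978), the amino acid permease gene AAP1 (0.975) and AT4G23670 (0.973). For P5CS1 they were again AT3G13310 (0.975), with the pfkB-like kinase gene AT1G66430 (0.973) and the expansin gene EXPA15 (0.957). AT3G13310 was 2.06 higher in HCT-RNAi on the log2 scale and stood at -0.0406 in the libraries labelled gpt2-1.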

How the data were processed

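The values the authors deposited are unnormalized read counts for each gene, in 15 tables for 60 sequencing records. The 4 records behind a table were treated as 1 sample. Per the labels' protocols, RNA came from a column kit and libraries from a stranded mRNA kit. The submitters' processing notes name STAR, DESeq2 and TAIR10 without a role, and the counting step is not given in the sources used here. Rows whose name is not in RefSeq's gene table (219 per table, at most 0.00117% of counts) were left out.

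The 5 tables of Col-0 set 2 (3 tables) and of 35S GPT2 replicates 2 and 3 had counts that stood beside other genes' names. As deposited they correlated with replicate 1 of Col-0 set 1 at a Spearman's rho of 0.0971 to 0.108 over genes. Read in the row order of the first 35S GPT2 table, as was done for all results, they reached 0.884 to 0.925. AT1G64190 was left out of trial 2 fits, because its row there repeats the GPT2 counts of Col-0 set 1.

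Counts were tested with edgeR 4.0.16 in R 4.3.3 (TMM, filterByExpr, quasi-likelihood F test, Benjamini-Hochberg adjustment over all genes, adjusted p under 0.05, no fold minimum). The 9 trial 1 samples shared a fit, the 6 trial 2 samples another, the Col-0 sets had a fit of their own, and the difference between line effects used all 15. DESeq2 1.42.0 was an alternative. The scripts were tested on simulated data. Counts of replicates differed by more than chance sampling gives, with chi-square divided by its degrees of freedom at 1.95 to 5.34 in trial 1 and 10.2 to 33.4 in trial 2.

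Same-numbered samples deviated together in trial 2 (correlations 0.211, 0.447 and 0.325) but not in trial 1 (-0.0748 to 0.0187). The pairing in trial 2 is read from the data, since the labels do not say what a number marks. Positions, exons and sequences are from RefSeq's TAIR10.1 assembly, and the 37967 loci kept are those named in its gene table.

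All 10 genes are named. From each other list, up to 4 genes per comparison with the smallest p among those past the test could be named, and the 3 genes with the highest r for each of RAB18, COR15A and P5CS1, among genes of at least 5 CPM in both trials without opposite-strand overlap. The genes, lists and tests were chosen with earlier results of these data known.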

Additional observations from a re-analysis of the deposited data

Results flagged for a closer look

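The effect of 35S GPT2 against its wild type differed from the effect in the libraries labelled gpt2-1 against theirs in 3 of the 10 genes, by an interaction test in edgeR over all 15 samples. The difference of log2 fold changes was 1.44 for COR15B (0.90 in 35S GPT2, not past the test, and -0.60 in the libraries labelled gpt2-1). It was 1.30 for COR15A (0.37, not past the test, and -0.98). It was -1.03 for ERD10 (-0.23, not past the test, and 0.75). The lines were compared with separate wild type sets, whose tables were made differently, and the line and the set cannot be told apart.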

How the results depend on the processing

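Of 754 values of single genes under the alternatives, 714 kept their side of the threshold without reversing a direction that had passed. Some values that did not pass changed sign. RAB18 in 35S GPT2, at 0.16 in the main fit, reached -0.06 at the lowest. Leaving out each replicate in turn gave 8 to 9 genes called in HCT-RNAi, 7 to 8 in the libraries labelled gpt2-1, 0 to 1 in 35S GPT2, 10 between the trial 1 lines, 6 to 9 between the wild type sets and 3 to 4 in the interaction. Without genes under opposite-strand exons, 5 of the 7 genes left were called in HCT-RNAi, all higher. With a 2-fold minimum, 1 was called in the libraries labelled gpt2-1 and 4 between the trial 1 lines. In 35S GPT2, 1 gene was called by DESeq2, without the filter on low counts, without Col-0 set 2 replicate 3 and with the replicate block, each time COR15B (0.90, 0.89, 1.16 and 0.90 on the log2 scale, adjusted p = 0.0104, 0.0201, 0.0481 and 0.00386). Over all genes, DESeq2 called 918 and the block 1103 against 462. The block changed 1 other call, of RD29A in the interaction (-0.35, adjusted p = 0.0489 in edgeR), and trial 1 numbers did not pair samples.

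With KIN1 and KIN2 summed, the value between the trial 1 lines was 0.86. With gene labels as deposited, 0 genes were called in the interaction, ERD10 stood there at 2.82, and the wild type sets differed by -8.87 for RAB18, -3.16 for COR15B, -8.52 for KIN1, -12.45 for KIN2, -5.95 for RD29A, -7.02 for RD29B and -2.92 for P5CS1, since other genes' counts then stand under these labels. RD29B rests on the fewest counts, with 2 in 35S GPT2 replicate 2.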
